A study of Homo sapiens with 8 samples.

Results

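K562 was set against GM12878 over all annotated genes, in 5 of the 8 direct RNA libraries of the series: 2 libraries of K562 and 3 of GM12878. Libraries were taken by the cell line that heads their column, and the reads of all transcript models of an annotated gene were summed. Of 20565 annotated genes in the deposited tables, 14864 had a read in these 5 libraries, against 17404 in all 8. K562 is an established line from a chronic myelogenous leukaemia in blast crisis, carries the BCR-ABL1 fusion and makes embryonic and fetal haemoglobins. GM12878 is an established B-lymphoblastoid line, made by transforming B cells with Epstein-Barr virus. Neither line carries a treatment in the labels, and total RNA was the starting material of both. Direct RNA sequencing reads native RNA through a nanopore, and each read was assigned to a transcript model by TALON. The libraries of HepG2, the other line of the series, entered the filter on low counts, the scaling of library sizes and the estimate of spread. HepG2 reads were also used to pick some genes given under the other observations.

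The sample labels give K562 the same cell type as GM12878, that of a lymphoblastoid line. Among B cell markers, CD79A, MS4A1, CD79B and HLA-DRA had 0 reads in both K562 libraries, and CD79A was at 373, 431 and 408 CPM in the 3 GM12878 libraries. CPM are counts scaled to a common library size by edgeR. Values are listed throughout by replicate, 1 then 2 for K562 and 1, 2 then 3 for GM12878. GATA1, the master regulator of red cell genes, was at 266 and 359 CPM in K562, and it had 0 reads in GM12878. Of 33 listed B cell genes, the 31 present in the data summed to 71.4 and 86.2 CPM in K562 and to 4000, 3857 and 3149 CPM in GM12878. Both K562 libraries thus went against the labelled cell type, with erythroid markers and hardly any B cell reads, and they are called by their line below. Of the other marker sets, hepatocyte genes had 0 reads in both K562 libraries for all 15 listed members, and 14 of the 15 had 0 reads in GM12878. ITGA2B, an integrin of megakaryocytes, was at 0 and 20.7 CPM in K562, which is 6 reads, all in replicate 2, and had 0 reads in GM12878. GP1BB, a platelet glycoprotein, was at 129.8 and 44.8 CPM in K562, with reads in both libraries, and had 0 reads in GM12878. The span of GP1BB overlaps those of SEPT5, at 182 and 128 CPM in K562, and SEPT5-GP1BB, at 311 and 110 CPM. Reads can be split between these genes, which leaves the value of GP1BB uncertain. The 1 tested gene of the megakaryocyte and platelet list, PLEK, was called lower, with 0 reads in K562 and 400.0, 389.8 and 267 CPM in GM12878. Of 3 tested genes of the T and NK cell list 2 were called lower, TRAC and TRBC2, constant genes of the T cell receptor, and TRAC had 0 reads in K562 and was at 267, 285 and 211 CPM in GM12878. CD3D, a subunit of the CD3 complex, was at 13 and 27.6 CPM in K562, with reads in both libraries, and had 0 reads in GM12878, and it did not pass the filter. CD7, a T cell surface gene, had 2 reads in K562, both in replicate 2, and 0 reads in GM12878, and was not called.

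Red cell haemoglobins are switched during development: zeta and epsilon globin are made in the embryo, gamma globin in the fetus and beta globin in the adult, with alpha globin through most of development. B cells transformed by Epstein-Barr virus make immunoglobulin, present antigen on MHC class II and keep NF-kB active through a viral membrane protein. MHC class I molecules, which most nucleated cells carry, pair an HLA heavy chain with beta-2 microglobulin and hold peptides that the immunoproteasome cuts and the TAP transporter carries.

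Read totals were 142837 and 313454 in the K562 libraries, against 151720, 176118 and 70374 in the GM12878 libraries. In chi-square per degree of freedom the K562 libraries differed from each other more than GM12878 libraries did. It was 4.65 over 3361 genes, against 1.35 to 1.62 for the GM12878 pairs. In correlation of log2 CPM they did not, at 0.738 for K562 against 0.597 to 0.692 for the GM12878 pairs. Both measures depend on read depth, which was not matched between the pairs. Nothing in the labels ties a library to its own culture, and p-values therefore rest on library spread that may be technical. That spread was estimated over all 8 libraries, and with only 2 of K562 each call takes the variation of K562 to be like that of the rest. A fit with 1 K562 library holds no K562 spread and takes all of it from the other lines. Calls kept with each K562 library alone, given below, therefore describe agreement between the libraries and are not a stricter test. Intervals and floors given below cover counting error only.

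A large share of genes differed between the lines, and for nearly all called genes both K562 libraries lay on the called side. Of 4778 genes tested, 1371 were called, or 28.7%, by edgeR's quasi-likelihood test at a Benjamini-Hochberg adjusted p under 0.05 with at least a 2-fold fitted difference. Higher in K562 were 662 genes, 13.9% of those tested, and lower in K562 were 709, 14.8%. Values of both K562 libraries lay outside the whole range of the GM12878 libraries, on the called side, for 1315 of the 1371 genes. The calls were made from these same libraries, so this count describes the called genes and does not test agreement. Over all tested genes, both K562 libraries lay above every GM12878 library in 23.8% and below every one in 25%. The call was kept with each K562 library alone for 809 genes, which is 351 higher, or 7.35% of genes tested, and 458 lower, or 9.59%. With K562 replicate 2 alone, 1237 of the 1371 were called, and with the shallower replicate 1 alone, 900 were called and 79 more were not tested. No called gene was called in the opposite direction with either library alone. In 372 of the called genes the lower line had 0 reads, 177 of them higher in K562. Among the tested genes 176 had 0 reads in both lines and were tested through HepG2.

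**Figure D1:**
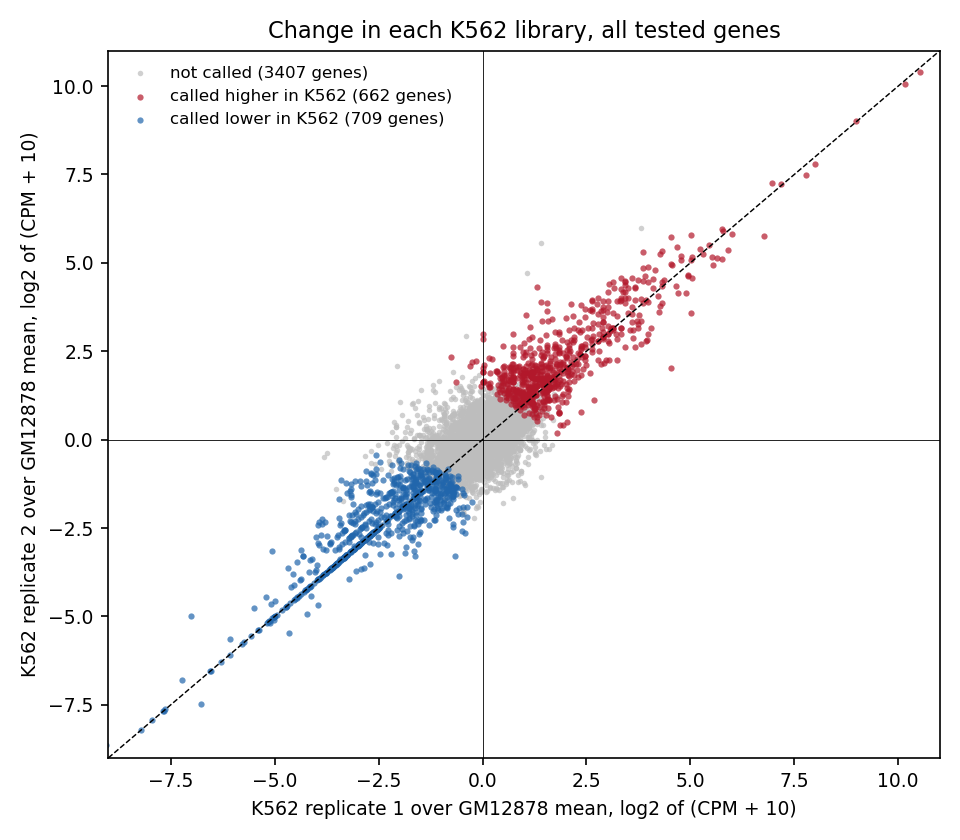
Change of every tested gene in K562 replicate 1 (horizontal axis) and K562 replicate 2 (vertical axis) over the GM12878 mean, each as log2 of CPM plus 10, where the dashed line marks equal change. The 662 genes called higher and the 709 called lower lie mostly toward the upper right and the lower left, and the straight edge of points at the lower left holds genes with 0 reads in both K562 libraries.

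Below, a list is described by how many of its tested members were called in each direction and by its median fitted log2 change, beside a median of 0 over all tested genes. The shares called over all tested genes were 13.9% higher and 14.8% lower, and a list near them does not stand out. A listed gene that passed the filter on low counts only through the line where it is high had to differ, so such counts describe the list and support nothing about it. Where a line had 0 reads, fold changes are lower bounds against a floor of 3 counts over that line, 6.76 CPM for K562 and 7.63 CPM for GM12878. Genes named for the largest change were picked among genes without overlap of the lines. For them, statements that both K562 libraries lay above or below all GM12878 libraries describe that choice and are no test. In bulk RNA, fewer cells with a transcript and less of it in each cell cannot be told apart.

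Globin genes were abundant in K562 and had no read in GM12878. HBG2, a fetal gamma globin (ENSG00000196565.14, chromosome 11, 5253190 to 5505605, GRCh38), was at 14619 and 13399 CPM in K562 and had 0 reads in all 3 GM12878 libraries. HBE1, the embryonic epsilon globin, was at 5048 and 5178 CPM in K562, and HBZ, the embryonic zeta globin, at 2200 and 1797 CPM. HBA1 and HBA2, which code for the same alpha globin, were at 2563 and 2232 CPM and at 1077 and 535 CPM in K562. HBQ1, the theta globin, was at 64.9 and 100.04 CPM in K562. All 5 of these also had 0 reads in GM12878, so both K562 libraries stood above all 3 GM12878 libraries for each. The embryonic, fetal and alpha genes were present together, whereas HBB, the adult beta globin, did not pass the filter on low counts, with 1 read in K562, in replicate 1, and 0 in GM12878. Lower bounds of the fold change were 1835 for HBG2, 669.8 for HBE1, 262 for HBZ and 10.8 for HBQ1. All 7 tested globins were called higher with both K562 libraries and with each alone, and the adjusted p was 7.81e-28 for HBE1. The list's median fitted log2 change was 11.94, or 8.29 where genes without a read in a line take their bound. Reads can be split within HBG1 and HBG2 and within HBA1 and HBA2, which are nearly identical, and the annotated spans of HBG2 and HBE1 overlap each other and those of OR51B5 and AC104389.4. The span of HBG2 also overlaps that of AC104389.5. Of the named globins, HBA2 differed most between the K562 libraries.

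Red cell regulators, membrane proteins and heme enzymes accompanied the globins. GATA1 was at least 40.9-fold higher in K562. NFE2, the erythroid subunit of a globin-enhancer factor, was at 266 and 328 CPM in K562 and 0 reads in GM12878. KLF1, the activator of adult globin genes, was at 273 and 279 CPM in K562 and 6.67, 5.82 and 0 CPM in GM12878, with K562 over GM12878 at 54.4 (95% interval from counting error, 14.8 to 455). LYL1, a blood stem cell factor related to TAL1, was at 298 and 200.1 CPM in K562, against 0, 5.82 and 0 CPM in GM12878. Each of the K562 libraries was above each GM12878 library for these 4 genes, and all 4 were called with either K562 library alone. Of 11 tested erythroid transcription factors 10 were called higher and none lower. The 10 were called without K562 replicate 1 as well, and 6 of them without replicate 2. Without replicate 2, GFI1B, at 90.8 and 152 CPM in K562, TAL1, at 84.4 and 62.1 CPM, and MYB did not pass the filter, and CBFA2T3 was tested and not called. ZFPM1, the GATA1 cofactor, was not called, at 71.4 and 20.7 CPM in K562 and 33.3, 23.3 and 0 CPM in GM12878, where the K562 libraries differed by more than the lines' means. Among edgeR fits with a library left out, the call of CBFA2T3 was lost without K562 replicate 2 (adjusted p = 0.107) or GM12878 replicate 1 (adjusted p = 0.0619).

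Among red cell surface genes, RHAG, the Rh-associated glycoprotein, was at 227 and 297 CPM in K562 and 0 reads in GM12878. GYPC, glycophorin C, was at 396 and 649 CPM in K562 and at 80.0, 111 and 42.2 CPM in GM12878, a fitted log2 change of 2.64 (SE 0.33, edgeR adjusted p = 6.69e-09). The 2 K562 libraries both exceeded the highest GM12878 library by more than 3-fold. Of 14 tested genes of this list 10 were called higher and 2 lower. With replicate 1 left out the same numbers held, and with replicate 2 left out they were 3 and 1. SPTB, the red cell beta spectrin, at 64.9 and 72.4 CPM in K562 and 0 reads in GM12878, did not pass the filter on replicate 1 alone. Lower in K562 was TSPAN33, a tetraspanin of red cell precursors and of activated B cells, with 1 read in K562 and 53.3, 81.5 and 98.4 CPM in GM12878. CD47, a ubiquitous signal against uptake by phagocytes, was at 58.4 and 24.1 CPM in K562, against 120.0, 134 and 70.3 CPM in GM12878, and its call was lost without replicate 2 (adjusted p = 0.269 by edgeR). By edgeR, the call of CD47 was lost without GM12878 replicate 1 (adjusted p = 0.062) or GM12878 replicate 2 (adjusted p = 0.102).

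The heme list moved both ways. ALAS2, the erythroid enzyme of the first step of heme synthesis, was at 77.9 and 79.3 CPM in K562 and 0 reads in GM12878, while its housekeeping counterpart ALAS1 was at 32.4 and 51.7 CPM in K562 and 153, 111 and 183 CPM in GM12878 and was called lower. UROD, a later enzyme of the same chain, was at 844 and 721 CPM in K562, against 86.7, 75.6 and 84.4 CPM in GM12878, 9.51-fold higher. For ALAS1 and UROD the lines did not overlap and the call was kept with either K562 library. The breakdown side split as well. BLVRB, the biliverdin reductase of fetal liver and red cells, was at 882 and 1518 CPM in K562 and 13.3, 11.6 and 28.1 CPM in GM12878, 67.8-fold higher. HMOX1, the inducible heme oxygenase, had 1 read in K562, in replicate 2, and was at 80.0, 105 and 84.4 CPM in GM12878, with GM12878 over K562 at 40.7 (95% interval from counting error, 6.85 to 1650). In total 5 of 12 tested members were higher and 3 lower. ALAS2 did not pass the filter with replicate 1 alone, and BLVRA, the other reductase, called lower, was not called with replicate 2 alone (adjusted p = 0.164 by edgeR). In iron storage, FTL, ferritin light chain, was at 5580 and 6482 CPM in K562 and 2187, 2595 and 2418 CPM in GM12878, 2.51-fold higher with no overlap. FTH1, ferritin heavy chain, was at 2725 and 4247 CPM in K562 and 2460, 2566 and 2348 CPM in GM12878 and was not called. TFRC, the transferrin receptor, was not called either, at 221 and 148 CPM in K562 and 153, 81.5 and 84.4 CPM in GM12878. With single libraries left out of the edgeR fit, the call of BLVRA was lost without GM12878 replicate 1 (adjusted p = 0.0762) or GM12878 replicate 3 (adjusted p = 0.0605).

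Germline antigens and some simple epithelial genes were higher in K562. PRAME, a tumour antigen of testis and leukaemias, was at 1233 and 1511 CPM in K562 and 0 reads in GM12878. SSX1, a germline transcriptional repressor, was at 240.1 and 193 CPM in K562 with 0 reads in GM12878, at least 28.4-fold higher. GAGE12F and GAGE1, members of an X-linked antigen family, were at 629 and 552 CPM and at 532 and 335 CPM in K562, again with 0 reads in GM12878. Reads of the closely alike GAGE copies can be split between them, which leaves each single value uncertain. All 11 tested cancer-testis antigens were called higher, and 10 of the 11 were called with each K562 library alone. The exception was MAGEA3, at 51.9 and 79.3 CPM in K562 and 0 reads in GM12878, which did not pass the filter on replicate 1 alone. KRT8 and KRT18, the keratin pair of simple epithelia, were at 428 and 448 CPM and at 545 and 593 CPM in K562 and had 0 reads in GM12878. KRT19 and EPCAM, further epithelial genes, were at 97.3 and 214 CPM and at 45.4 and 100.04 CPM in K562, also against 0 reads. Both K562 libraries carried each of these 4 genes, and the calls held with each alone. They were the 4 called of 6 tested epithelial genes, and JUP, a junction protein, and KRT10, a keratin of the epidermis, were not called. Of the 15 listed, 14 were present in the data, and 6 of the 14 had 0 reads in K562. Among these 6 were CDH1, epithelial cadherin, with 0 reads in both lines, and KRT7, with 9 reads in GM12878.

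Several single genes of large change stood beside these groups. KCNH2, a cardiac potassium channel that leukaemias can express, was at 532 and 618 CPM in K562 and 0 reads in GM12878. NMU, the neuropeptide neuromedin U, was at 590.5 and 404 CPM in K562 and GAL, the neuropeptide galanin, at 311 and 331 CPM, both with 0 reads in GM12878. CKB, brain creatine kinase, was at 552 and 528 CPM in K562, against 6.67, 5.82 and 0 CPM in GM12878. GTSF1, a germline factor of piRNA silencing in mice, was at 247 and 424 CPM in K562 and 0 reads in GM12878. RHOXF2, an X-linked homeobox gene of testis, was at 318 and 348 CPM in K562, again with 0 reads in GM12878. All 6 were called with either K562 library alone.

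**Figure D2:**
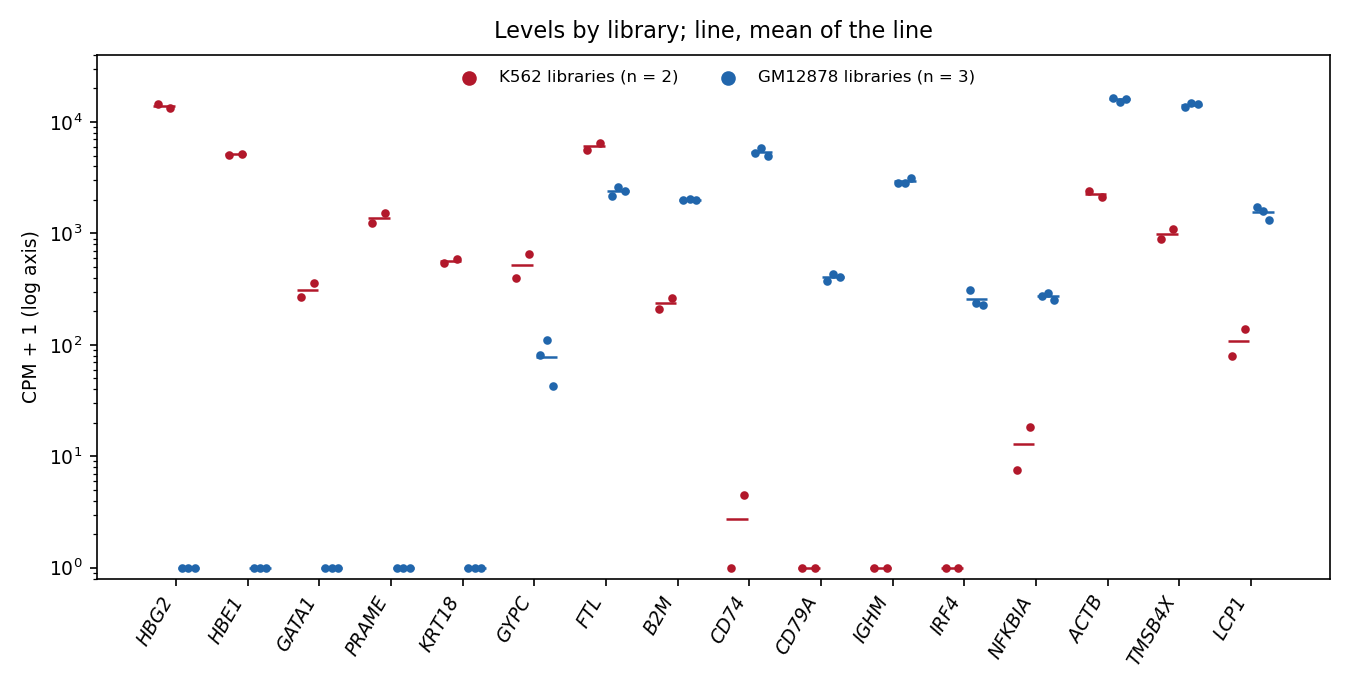
CPM plus 1 (log axis) in each K562 library (red, left of each pair) and each GM12878 library (blue, right) for 16 genes of the red cell, germline, antigen presentation, B cell, NF-kB and actin groups, with a bar at the mean of the line. Points at 1 are libraries with 0 reads, as for HBG2 in GM12878 and for IGHM in K562, and B2M, ACTB and TMSB4X were present in both lines and lower in both K562 libraries.

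The B cell programme was lower in K562. IGHM, the constant gene of IgM heavy chains (ENSG00000211899.10, chromosome 14, 105851705 to 105856218, GRCh38), had 0 reads in both K562 libraries and was at 2827, 2862 and 3135 CPM in GM12878, at least 435-fold lower in K562. FCER2, the low-affinity IgE receptor CD23, had 0 reads in K562 and was at 360.0, 320.0 and 267 CPM in GM12878. IRF4 and IRF8, factors of B cell differentiation, had 0 reads in K562 as well, against 307, 239 and 225 CPM and 73.3, 128 and 42.2 CPM in GM12878. CD22, an inhibitory co-receptor, had 1 read in K562, in replicate 2, and was at 80.0, 81.5 and 56.2 CPM in GM12878. CD53, a leukocyte tetraspanin, was at 6.49 and 3.45 CPM in K562, 1 read in each library, and 300.0, 291 and 239 CPM in GM12878. Of 22 tested B cell genes 21 were called lower and none higher, and the same 21 were called with each K562 library alone. The exception was BTK, the tyrosine kinase of B cell receptor signalling, which myeloid cells also use. It was at 38.9 and 41.4 CPM in K562 and 113, 58.2 and 56.2 CPM in GM12878 and was not called. All 4 tested immunoglobulin genes and all 9 tested genes of MHC class II were called lower with each K562 library. CD74, the invariant chain of MHC class II, had 1 K562 read, in replicate 2, and was at 5274, 5818 and 4949 CPM in GM12878. The median fitted log2 change was -6.85 for B cell identity and -9.76 for MHC class II. Where genes without a read in a line take their bound it was -4.43 for the first list and -6.27 for the second. IRF8 did not pass the filter without GM12878 replicate 2.

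Genes of MHC class I presentation, from heavy chains to peptide supply, were lower in K562. HLA-B, a heavy chain, had 0 reads in both K562 libraries and was at 2460, 2478 and 2418 CPM in GM12878. HLA-C was at 0 and 31 CPM in K562, all in replicate 2, and 1167, 1367 and 1307 CPM in GM12878, and HLA-E, a less variable heavy chain, was at 19.5 and 72.4 CPM in K562 and 480.0, 401 and 379.6 CPM in GM12878. HLA genes resemble each other, and the separate values are uncertain. B2M, beta-2 microglobulin, was at 208 and 262 CPM in K562 and 2007, 2019 and 1996 CPM in GM12878, 8.55-fold lower in K562 (fitted log2 change -3.07, SE 0.25, edgeR adjusted p = 2.21e-15). Both K562 values were far below the narrow GM12878 range. Of the immunoproteasome, PSMB8 and PSMB9 had 1 K562 read each, in replicate 2, against 540.0, 704 and 745 CPM and 253, 355 and 323 CPM in GM12878. PSMB10, a further subunit, was at 156 and 65.5 CPM in K562 and 420.0, 425 and 337 CPM in GM12878. TAP1, a subunit of the peptide transporter, was at 0 and 13.8 CPM in K562 and 160.0, 169 and 127 CPM in GM12878. The proteasome activators PSME1 and PSME2 were lower too, PSME2 at 110.3 and 128 CPM in K562 and 687, 675 and 759 CPM in GM12878. Of 16 tested members 13 were called lower, none higher, and the 13 were called with each K562 library alone. The chaperones CALR, PDIA3 and CANX, which also fold other proteins, were the 3 not called. In contrast, 1 of 30 tested genes of the constitutive proteasome was called lower, PSMA3, and none higher, with a median of -0.01. PSMA3 was called on K562 replicate 2 alone and not on replicate 1 alone (adjusted p = 0.11 by edgeR). In edgeR fits on 1 library fewer, the call of PSMA3 was lost without GM12878 replicate 2 (log2 change -0.94) or GM12878 replicate 3 (log2 change -0.92).

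Promoter sequence was read for these genes from RefSeq (GRCh38.p14), as the 250 bases before the annotated start, where a script searched both strands for the 10-letter NF-kB consensus and for the interferon response element, taken as GAAA, any 2 bases and GAAA again. These 3 are shown because each gene was far lower in K562 and its window holds a match. Capitals mark motif matches, and overlapping matches run together.
HLA-B, chr6:31357180-31357429, minus strand, with overlapping NF-kB matches: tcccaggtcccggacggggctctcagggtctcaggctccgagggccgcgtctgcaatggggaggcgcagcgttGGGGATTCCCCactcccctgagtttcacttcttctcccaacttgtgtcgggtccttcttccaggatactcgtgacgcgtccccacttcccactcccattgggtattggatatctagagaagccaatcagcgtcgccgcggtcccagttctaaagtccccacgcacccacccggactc
B2M, chr15:44711267-44711516, plus strand, with overlapping interferon response matches and an NF-kB match: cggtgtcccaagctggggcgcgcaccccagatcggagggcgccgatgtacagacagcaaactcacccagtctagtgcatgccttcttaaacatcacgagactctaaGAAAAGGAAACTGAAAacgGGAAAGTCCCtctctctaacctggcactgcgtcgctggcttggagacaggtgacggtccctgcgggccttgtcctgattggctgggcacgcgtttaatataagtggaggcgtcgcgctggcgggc
NFKBIA, chr14:35404750-35404999, minus strand, with an NF-kB match: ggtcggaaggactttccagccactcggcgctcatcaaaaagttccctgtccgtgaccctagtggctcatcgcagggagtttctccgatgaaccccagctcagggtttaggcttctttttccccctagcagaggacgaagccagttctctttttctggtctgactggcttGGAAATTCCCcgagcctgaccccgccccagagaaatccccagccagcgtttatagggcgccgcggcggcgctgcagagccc
Of 5416 promoter windows of the 3743 tested genes that the table holds, 11.7% had an NF-kB match and 2.42% an interferon response match. In the MHC class I list 6 of 18 windows had the first and 6 of 18 the second. The NF-kB targets had the NF-kB match in 11 of 25 windows, the interferon-stimulated genes had the interferon match in 9 of 18, and the constitutive proteasome had the NF-kB match in 1 of 31 and the interferon match in 2 of 31. MHC class II had the NF-kB match in 2 of 9 windows and the interferon match in 0 of 9. A match describes the letters of these windows and does not show binding.

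NF-kB targets were low in K562. NFKBIA, the inhibitor that NF-kB itself induces, was at 6.49 and 17.2 CPM in K562 and 273, 291 and 253 CPM in GM12878, 23-fold lower. TRAF1, a signalling adaptor, was at 0 and 10.3 CPM in K562 and 247, 221 and 169 CPM in GM12878. BCL2A1, a survival protein, had 0 reads in K562 and was at 240.0, 209 and 211 CPM in GM12878. EBI3, a cytokine subunit first found in virus-transformed B cells, had 0 reads in K562 and was at 113, 93.1 and 141 CPM in GM12878. For NFKBIA, TRAF1, BCL2A1 and EBI3 the K562 libraries stood below every GM12878 library, with either alone called. RELB and NFKB2, the subunits of the alternative pathway, were called lower too, RELB with 0 reads in K562 and NFKB2 at 13 and 31 CPM in K562, against 133, 180.4 and 112 CPM in GM12878. RELA, the main activating subunit, was not called, at 45.4 and 65.5 CPM in K562 and 46.7, 75.6 and 28.1 CPM in GM12878. In total 18 of 19 tested NF-kB genes were called lower, 15 of them with each K562 library alone. NFKBIE, ICAM1 and TNFAIP2 were the 3 that were not. Of 8 tested chemokines and receptors 7 were called lower. CCL3, CCL4, CCL22 and CXCR4 had 0 reads in K562, and CCL3 was at 1120, 809 and 844 CPM in GM12878. CCR7, the lymph node homing receptor, had 1 K562 read and was at 333, 459.6 and 197 CPM in GM12878. These 7 were called with each K562 library alone. On refitting with edgeR, the call of NFKBIE was lost without K562 replicate 2 (adjusted p = 0.161) or GM12878 replicate 1 (adjusted p = 0.0765) or GM12878 replicate 2 (adjusted p = 0.0518) or GM12878 replicate 3 (adjusted p = 0.079). When edgeR was refitted on fewer libraries, the call of ICAM1 was lost without K562 replicate 1 (adjusted p = 0.0506) or GM12878 replicate 1 (adjusted p = 0.138). Among edgeR fits with a library left out, the call of TNFAIP2 was lost without K562 replicate 2 (adjusted p = 0.23). TNFAIP2 did not pass the filter without GM12878 replicate 2 or without GM12878 replicate 3.

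Interferon-stimulated genes divided. MX1, an antiviral GTPase, had 0 reads in K562 and was at 220.0, 285 and 309 CPM in GM12878, and ISG15, the ubiquitin-like modifier, was at 45.4 and 17.2 CPM in K562 and 213, 256 and 267 CPM in GM12878. OAS1, OAS2, OAS3, MX2 and ISG20 had 0 reads in K562. The membrane proteins of the IFITM family went otherwise. IFITM1 was at 1110 and 1163 CPM in K562 and 480.0, 535 and 520.2 CPM in GM12878, 2.22-fold higher, and IFITM3 was at 123 and 217 CPM in K562 and 0 reads in GM12878. IFITM2 was not called, at 84.4 and 138 CPM in K562 and 187, 209 and 112 CPM in GM12878. The spans of IFITM1 and IFITM2 overlap, and the family is close in sequence, so that reads could be split between them. Of 20 tested members 13 were called lower, 11 with each K562 library alone, and 3 higher, 2 with each alone. The share lower was 65%, against 14.8% over all tested genes, and the share higher was 15%, near the 13.9% over all tested genes. IRF1 and IRF7 among those lower, and LGALS3BP among those higher, were not called with each library alone. By edgeR, the call of IRF1 was lost without K562 replicate 1 (adjusted p = 0.0769). With single libraries left out of the edgeR fit, the call of IRF7 was lost without K562 replicate 2 (adjusted p = 0.121). In edgeR fits on 1 library fewer, the call of LGALS3BP was lost without K562 replicate 2 (adjusted p = 0.713) or GM12878 replicate 1 (adjusted p = 0.143) or GM12878 replicate 2 (adjusted p = 0.167). OAS2 did not pass the filter without GM12878 replicate 2 or without GM12878 replicate 3. OAS3 did not pass the filter without GM12878 replicate 1 or without GM12878 replicate 3.

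Most tested genes of the leukocyte and actin cytoskeleton were lower in K562. CORO1A, a leukocyte actin regulator, had 1 read in K562 and was at 1673, 1693 and 1968 CPM in GM12878, and LSP1, an actin-binding protein of lymphocytes, had 0 reads in K562 and was at 653, 704 and 647 CPM in GM12878. ARHGDIB, a regulator of small GTPases in blood cells, was at 25.95 and 24.1 CPM in K562, against 1233, 1164 and 1279 CPM in GM12878. LCP1, the leukocyte actin bundler, was at 77.9 and 138 CPM in K562 and 1733, 1588 and 1307 CPM in GM12878. Several ubiquitous members were lower as well. ACTB, beta-actin, was at 2381 and 2122 CPM in K562 and 16507, 15179 and 16126 CPM in GM12878, 7.08-fold lower (fitted log2 change -2.82, SE 0.19, edgeR adjusted p = 4.11e-18). TMSB4X, the main actin-sequestering thymosin, was at 882 and 1100 CPM in K562 and 13674, 14766 and 14579 CPM in GM12878, 14.5-fold lower. ACTG1, gamma-actin, was at 1110 and 1107 CPM in K562 and 4740, 4963 and 4963 CPM in GM12878, and PFN1, profilin, at 1389 and 1183 CPM in K562 and 4820, 4870 and 4752 CPM in GM12878. The K562 replicates of ACTG1 were nearly equal, and for all 8 genes the lines were well apart. Of 33 tested members 23 were called lower, 19 with each K562 library alone, and none higher. Among the 10 not called, MYL12B, a myosin light chain, was at 415 and 276 CPM in K562 and 247, 314 and 464 CPM in GM12878. MSN, moesin, was at 169 and 200.1 CPM in K562 and 260.0, 175 and 197 CPM in GM12878, and CAPG, an actin-capping protein, was at 25.95 and 159 CPM in K562 and 86.7, 75.6 and 70.3 CPM in GM12878. MYL6, VASP, EZR and CD52 were called with both libraries together but not with each alone. The summed level of the list was 10446 and 10636 CPM in K562, against 59469, 59913 and 59511 CPM in GM12878. On refitting with edgeR, the call of MYL6 was lost without K562 replicate 1 (log2 change -0.86) or GM12878 replicate 2 (log2 change -0.87) or GM12878 replicate 3 (log2 change -0.98). When edgeR was refitted on fewer libraries, the call of VASP was lost without K562 replicate 2 (adjusted p = 0.314) or GM12878 replicate 1 (adjusted p = 0.108) or GM12878 replicate 3 (adjusted p = 0.0708). Among edgeR fits with a library left out, the call of EZR was lost without K562 replicate 2 (adjusted p = 0.0884) or GM12878 replicate 1 (adjusted p = 0.117) or GM12878 replicate 2 (adjusted p = 0.0696). By edgeR, the call of CD52 was lost without K562 replicate 1 (adjusted p = 0.0581) or K562 replicate 2 (adjusted p = 0.0759) or GM12878 replicate 1 (adjusted p = 0.108) or GM12878 replicate 2 (adjusted p = 0.0603).

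**Figure D3:**
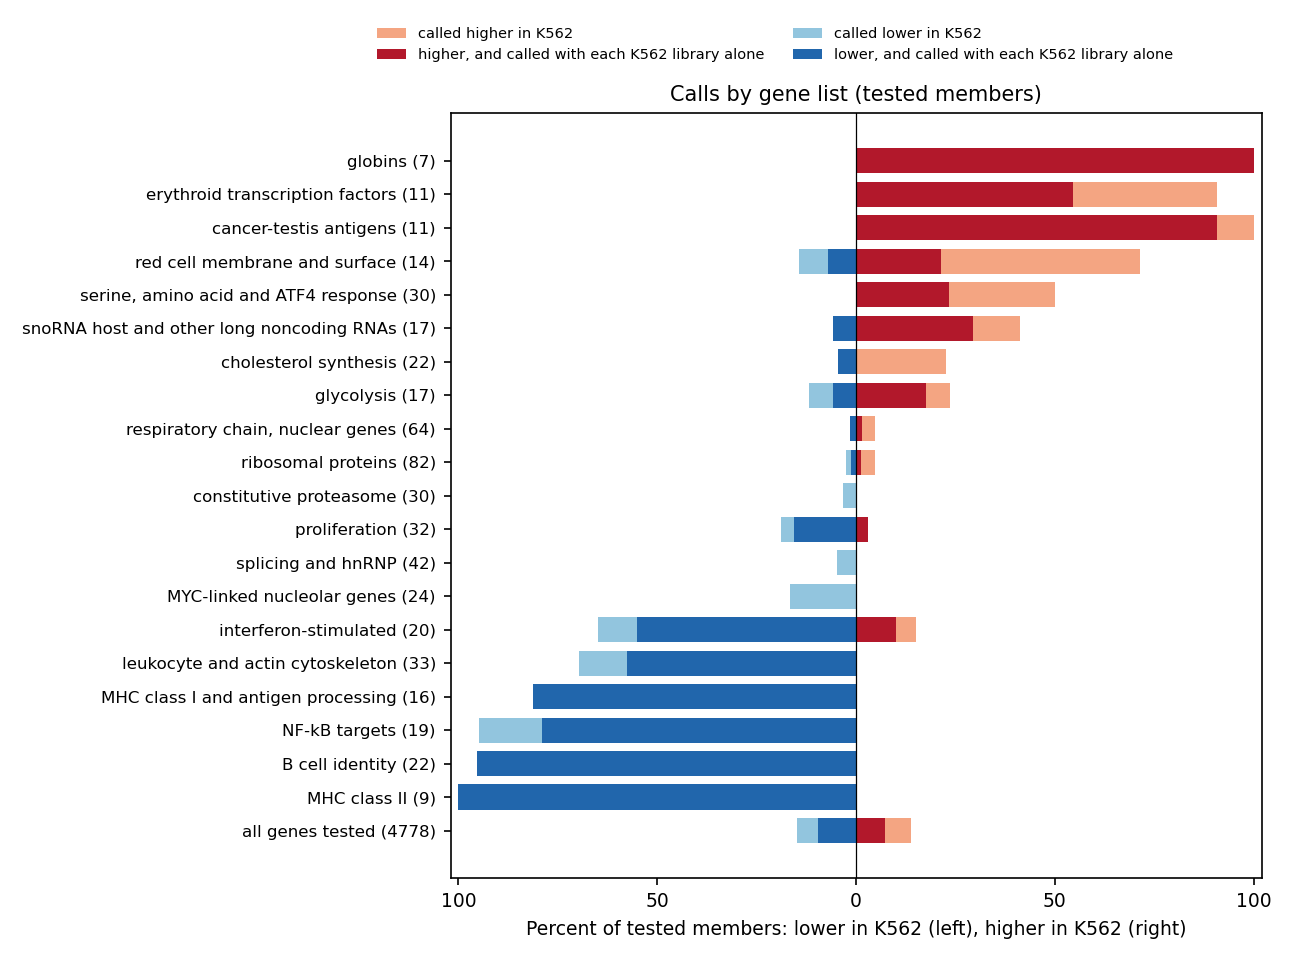
Percent of tested members of 20 gene lists called lower in K562 (left of 0) and higher in K562 (right), with the number of tested members in brackets and all 4778 tested genes at the bottom. Dark bars are calls kept with each K562 library alone, which make up all of the globin, MHC class I, MHC class II and B cell calls and none of the cholesterol, splicing and MYC-linked nucleolar calls in the main direction.

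Of calcium-binding and membrane-linked proteins, ANXA1 and ANXA2, annexins, were higher in K562, ANXA1 at 156 and 259 CPM in K562 and 33.3, 17.5 and 14.1 CPM in GM12878. ANXA6 was lower, at 6.49 and 24.1 CPM in K562 and 400.0, 500.3 and 337 CPM in GM12878, and CD44, the hyaluronan receptor, had 0 reads in K562 and was at 120.0, 52.4 and 98.4 CPM in GM12878. CRIP1, a small zinc-binding LIM protein, had 0 reads in K562 and was at 880.0, 768 and 661 CPM in GM12878, at least 114-fold lower. These 5 calls were kept with either K562 library. In this list 4 of 21 tested members were called higher and 8 lower, of which 3 and 4 were kept with each library alone. MT1E, a metallothionein, had 0 reads in K562 and was at 293, 349 and 323 CPM in GM12878, and all 3 tested metallothioneins were called lower, MT1X only with both K562 libraries or with replicate 1. With single libraries left out of the edgeR fit, the call of MT1X was lost without K562 replicate 1 (adjusted p = 0.191) or GM12878 replicate 1 (adjusted p = 0.21) or GM12878 replicate 2 (adjusted p = 0.152).

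Signalling and survival genes linked to the fusion kinase changed in part. PIM1, a kinase induced by STAT5, was at 253 and 562.3 CPM in K562 and 40.002, 17.5 and 0 CPM in GM12878, 21.3-fold higher. STAT5A, a transducer activated by BCR-ABL1, was at 454 and 273 CPM in K562 and 60.002, 69.8 and 70.3 CPM in GM12878, and STAT5B was at 90.8 and 114 CPM in K562 and 20.001, 17.5 and 28.1 CPM in GM12878. For these 3 the lines did not overlap and either K562 library alone gave the call. ABL1 was at 77.9 and 117 CPM in K562 and 26.7, 29.1 and 0 CPM in GM12878 and was called higher, but not with replicate 1 alone (adjusted p = 0.0607 by edgeR). BCR, the fusion partner, was at 19.5 and 37.9 CPM in K562 and 167, 98.9 and 56.2 CPM in GM12878 and was called lower with each K562 library. Reads of a fusion RNA could be counted under either gene or neither, which the tables do not show. In total 6 of 14 tested members were higher and 2 lower, 3 and 1 with each library alone. MYC, at 90.8 and 169 CPM in K562 and 73.3, 87.3 and 42.2 CPM in GM12878, was not called. Of 15 tested apoptosis regulators 6 were lower and none higher. FAS, the death receptor, had 0 reads in K562 and was at 46.7, 64 and 56.2 CPM in GM12878, and BAX, a mitochondrial pore protein, was at 38.9 and 44.8 CPM in K562 and 193, 175 and 225 CPM in GM12878. Both were called with each library alone, as were BCL2A1 and BIRC3, whereas CFLAR was not. MTAP, CDKN2A and CDKN2B, which lie together at 9p21, had 0 reads in K562 and at most 3 in GM12878, too few to compare. In edgeR fits on 1 library fewer, the call of BCR was lost without GM12878 replicate 1 (adjusted p = 0.0824). On refitting with edgeR, the call of CFLAR was lost without K562 replicate 2 (adjusted p = 0.0793). FAS did not pass the filter without GM12878 replicate 2.

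Most of the common machinery of the cell was not called. Of 82 ribosomal protein genes, 4 were called higher and 2 lower, with a median of 0.16, and of 64 nuclear genes of the respiratory chain 3 were higher and 1 lower, with a median of 0.16. Of 42 splicing genes 2 were called lower, and of 38 translation factors 2 higher. The K562 libraries did not give the same counts for these lists. Ribosomal protein genes called higher numbered 10 on replicate 2 alone and 1 on replicate 1 alone, and 71 of 82 had more CPM in replicate 2, with a median log2 ratio of 0.44. Those of the respiratory chain numbered 6 on replicate 2 alone and 4 on replicate 1 alone, with 1 of the 3 calls kept in both. Translation factors called higher numbered 5 on replicate 2 alone and 2 on replicate 1 alone. Splicing genes called lower numbered 11 on replicate 2 alone and 0 on replicate 1 alone. EIF4EBP1, the translation repressor, was at 324 and 342 CPM in K562 and 60.002, 52.4 and 56.2 CPM in GM12878, higher with either K562 library. RPL22L1, a paralog of a ribosomal protein, was at 90.8 and 75.9 CPM in K562 and 547, 495 and 661 CPM in GM12878, lower with either. Of 32 proliferation genes 6 were lower, or 18.8%, near the 14.8% over all tested genes, and 1 was higher, or 3.1%, against 13.9%. MCM5, of the replicative helicase, was at 136 and 131 CPM in K562 and 460.0, 547 and 576 CPM in GM12878, and UBE2C, a ubiquitin-conjugating enzyme of mitosis, had 0 reads in K562 and was at 193, 180.4 and 337 CPM in GM12878. CCND3, cyclin D3, was at 240.1 and 189.7 CPM in K562 and 80.0, 46.5 and 98.4 CPM in GM12878, and CCND2, cyclin D2, at 77.9 and 20.7 CPM in K562 and 300.0, 279 and 211 CPM in GM12878, so that the 2 cyclins went opposite ways. These 4 calls were kept with each K562 library alone. Long noncoding RNAs leaned to K562, with 7 of 17 tested higher and 1 lower, 5 and 1 with each library alone. SNHG5, a snoRNA host, was at 915 and 959 CPM in K562 and 260.0, 343 and 337 CPM in GM12878, 2.99-fold higher, and MIR155HG, the host of the B cell microRNA miR-155, had 0 reads in K562 and was at 73.3, 75.6 and 56.2 CPM in GM12878.

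Metabolic genes were mixed. HK1, hexokinase 1, was at 428 and 662 CPM in K562 and 73.3, 81.5 and 42.2 CPM in GM12878, 8.31-fold higher, and SLC2A1, the glucose transporter GLUT1, was at 123 and 121 CPM in K562 and 33.3, 11.6 and 14.1 CPM in GM12878. PKM, pyruvate kinase, was at 396 and 552 CPM in K562 and 2207, 2199 and 1701 CPM in GM12878, 4.3-fold lower. Calls for these 3 held with each K562 library alone. GAPDH, often used as a reference gene, was at 3926 and 3305 CPM in K562 and 7694, 6749 and 8253 CPM in GM12878 and was called lower, with replicate 2 alone but not with replicate 1 alone (adjusted p = 1.70e-05, edgeR, with a fitted change under 2-fold). In total 4 of 17 glycolytic genes were higher and 2 lower. PRDX6, a peroxiredoxin, was at 947 and 1387 CPM in K562 and 300.0, 192 and 337 CPM in GM12878, 4.22-fold higher and called with either library. GPX1, glutathione peroxidase 1, which the annotation types as a polymorphic pseudogene, had 0 reads in K562 and was at 520.0, 483 and 619 CPM in GM12878, at least 80.0-fold lower. SLC25A1, the mitochondrial citrate carrier, was at 435 and 659 CPM in K562 and 120.0, 98.9 and 183 CPM in GM12878, higher with either library. When edgeR was refitted on fewer libraries, the call of GAPDH was lost without GM12878 replicate 1 (log2 change -0.96) or GM12878 replicate 3 (log2 change -0.93).

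The K562 libraries stood apart over genes of serine and amino acid supply and of the ATF4 response, the programme cells switch on when amino acids are short. ATF4 binds C/EBP-ATF response elements, and its targets include asparagine synthetase, aminoacyl-tRNA synthetases, amino acid carriers and the inhibitor TRIB3. ASNS, asparagine synthetase, was at 64.9 and 404 CPM in K562, against 6.67, 29.1 and 42.2 CPM in GM12878. TRIB3 was at 84.4 and 524 CPM in K562 and 20.001, 29.1 and 28.1 CPM in GM12878. DDIT4, a stress-induced inhibitor of mTORC1, was at 90.8 and 1000 CPM in K562 and 160.0, 81.5 and 127 CPM in GM12878. PHGDH, the entry enzyme of serine synthesis, was at 32.4 and 245 CPM in K562 and 80.0, 81.5 and 98.4 CPM in GM12878, and MTHFD2, a mitochondrial folate enzyme, was at 25.95 and 224 CPM in K562 and 53.3, 40.7 and 98.4 CPM in GM12878. In all 5 genes K562 replicate 2 was far above replicate 1, and for DDIT4, PHGDH and MTHFD2 replicate 1 lay within or below the GM12878 range and replicate 2 above it. CHAC1, an ATF4 target that degrades glutathione, had 25 reads in K562 replicate 2, 0 in replicate 1 and 0 in GM12878, and did not pass the filter. ATF4 itself was at 175 and 442 CPM in K562 and 233, 227 and 239 CPM in GM12878 and was not called.

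Promoters of ASNS and CHAC1 are shown because both hold the C/EBP-ATF response element, searched on both strands as TGATGNAA and marked in capitals (RefSeq, GRCh38.p14, 250 bases before the annotated start).
ASNS, chr7:97872409-97872658, minus strand: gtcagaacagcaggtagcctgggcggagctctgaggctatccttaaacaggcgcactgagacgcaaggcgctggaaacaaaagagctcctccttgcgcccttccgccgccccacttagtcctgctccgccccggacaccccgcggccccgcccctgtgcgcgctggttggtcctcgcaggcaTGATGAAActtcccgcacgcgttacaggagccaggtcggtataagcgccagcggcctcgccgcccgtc
CHAC1, chr15:40953221-40953470, plus strand: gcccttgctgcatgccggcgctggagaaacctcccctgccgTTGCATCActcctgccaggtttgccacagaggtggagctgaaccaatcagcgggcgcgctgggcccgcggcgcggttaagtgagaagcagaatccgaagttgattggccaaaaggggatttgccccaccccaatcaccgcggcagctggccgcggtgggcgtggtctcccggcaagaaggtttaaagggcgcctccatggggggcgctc
The element was in 5 of 36 windows of the amino acid list, or 13.9%, and in 1.496% of all 5416 windows.

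Over the amino acid list, all 27 members with at least 50 CPM in K562 were higher in replicate 2 than in replicate 1, with a median log2 ratio of 1.26 between the libraries, where the median over 2902 such genes was 0.08. Of 30 tested members 15 were called higher in K562 than in GM12878 and none lower. Without replicate 1 the number was 22, and without replicate 2 it was 7, with 2 called lower. The calls of 7 genes were kept with each library alone. Among them PYCR1, an enzyme of proline synthesis, was at 324 and 600.3 CPM in K562 and 113, 64 and 98.4 CPM in GM12878, and SLC1A5, a glutamine carrier, at 344 and 611 CPM in K562 and 147, 151 and 169 CPM in GM12878. CBS, cystathionine beta-synthase, was at 104 and 152 CPM in K562 and 0 reads in GM12878. For CBS, PYCR1 and SLC1A5 both K562 libraries were above all GM12878 libraries. The call of ASNS was lost without replicate 2 (adjusted p = 0.15 by edgeR), and so was that of SLC7A5, a large neutral amino acid carrier (adjusted p = 0.0841).

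**Figure D4:**
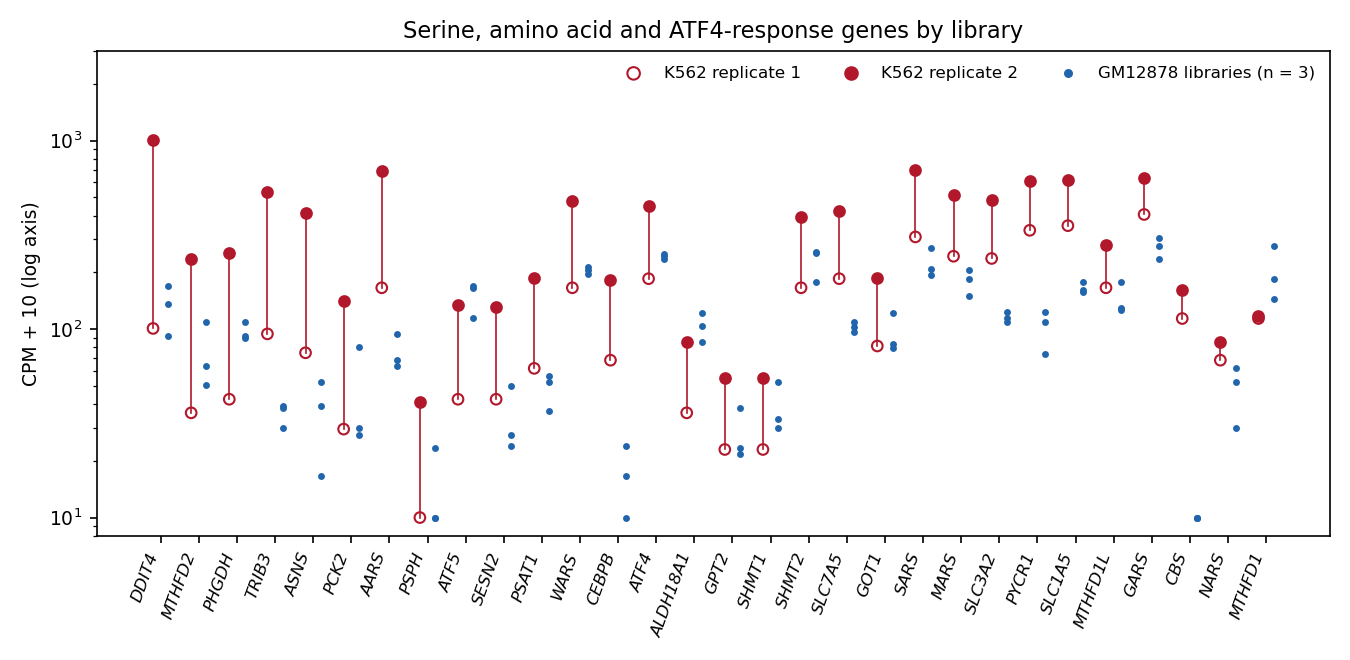
CPM plus 10 (log axis) of the 30 tested genes of serine and amino acid supply and the ATF4 response, ordered by the ratio of K562 replicate 2 (filled red) over replicate 1 (open red), joined by a line, with the 3 GM12878 libraries in blue to the right. Replicate 2 is above replicate 1 in each gene, from a log2 ratio of 3.32 for DDIT4 to 0.04 for MTHFD1, and for CBS, PYCR1 and SLC1A5 both K562 points are above all blue points.

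Other groups moved with the difference between the K562 libraries. Of 2902 genes with at least 50 CPM in K562, 14.7% differed by 2-fold or more between the K562 replicates, 267 higher in replicate 2 and 159 lower. Between GM12878 replicates 2 and 1 the share was 5.61% of 3012 genes. That GM12878 pair had the lowest chi-square of its line, and the other GM12878 pairs were not compared in this way. Cholesterol synthesis genes had a median log2 ratio of replicate 2 over replicate 1 of 0.71. Of 22 tested, 5 were called higher and 1 lower, 10 were higher without replicate 1 and 0 without replicate 2. The 1 lower was PMVK, phosphomevalonate kinase, at 25.95 and 31 CPM in K562 and 180.0, 192 and 141 CPM in GM12878, with either library. MYC-linked nucleolar genes went the other way, with a median ratio of -0.46, and 16.7% of those tested were called lower, near the 14.8% over all tested genes. ODC1, the polyamine enzyme, was at 902 and 248 CPM in K562 and 620.0, 634 and 576 CPM in GM12878, and NOP16, a nucleolar protein, at 292 and 75.9 CPM in K562 and 187, 221 and 253 CPM in GM12878, each with 1 K562 library on either side of the GM12878 range. Of 24 nucleolar genes 4 were called lower, 7 without replicate 1 and 0 without replicate 2. Splicing genes had a median ratio of -0.45 and 11 of 42 called lower without replicate 1, against 0 without replicate 2. Mitochondrially encoded mRNAs had a median ratio of 1.22, and 4 of 9 were called lower, 4 without replicate 1 and 8 without replicate 2. MT-CO1, a subunit of cytochrome oxidase, was at 221 and 455 CPM in K562 and 780.0, 640.0 and 844 CPM in GM12878, and MT-ND5, of complex I, at 51.9 and 65.5 CPM in K562 and 227, 169 and 225 CPM in GM12878. Among called genes, the inhibitors of differentiation ID1 and ID3 were higher in replicate 1, ID1 at 221 and 31 CPM in K562 and 0 reads in GM12878. The stress cytokine GDF15 was higher in replicate 2, at 19.5 and 228 CPM in K562 and 0, 5.82 and 0 CPM in GM12878. ALDOC, a brain aldolase, was not called, at 38.9 and 600.3 CPM in K562 and 20.001, 5.82 and 14.1 CPM in GM12878, with replicate 2 far above all other libraries. Among edgeR fits with a library left out, the call of MT-CO1 was lost without K562 replicate 1 (log2 change -0.65) or GM12878 replicate 1 (log2 change -0.98) or GM12878 replicate 3 (log2 change -0.95). By edgeR, the call of ID1 was lost without GM12878 replicate 2 (adjusted p = 0.0924). With single libraries left out of the edgeR fit, the call of ID3 was lost without K562 replicate 2 (adjusted p = 0.33). In edgeR fits on 1 library fewer, the call of GDF15 was lost without K562 replicate 2 (adjusted p = 0.151) or GM12878 replicate 2 (adjusted p = 0.0588).

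Along the genome, chromosome 22 held a long run of genes higher in K562. A run of 29 consecutive tested genes with a higher mean in K562 reached from DGCR2 to PRAME (chromosome 22, 19036282 to 22559361, GRCh38). It was chosen after values were seen and is given as a description. Of the 29, 24 were called higher, 17 with each K562 library alone, and in 27 the lines did not overlap. Over all tested genes, both K562 libraries lay above every GM12878 library in 23.8%. The median change on the scale of log2 of CPM plus 10 was 1.54 in K562 replicate 1 and 1.88 in replicate 2. The run was picked on the mean of these same K562 libraries, so high values in both are partly set by that choice. YDJC, a deacetylase homolog, was at 733 and 704 CPM in K562 and 53.3, 69.8 and 98.4 CPM in GM12878, 9.73-fold higher. UBE2L3, a ubiquitin-conjugating enzyme, was at 746 and 756 CPM in K562 and 267, 303 and 183 CPM in GM12878. CRKL, an adaptor that BCR-ABL1 phosphorylates, was at 77.9 and 124 CPM in K562 and 53.3, 23.3 and 28.1 CPM in GM12878, called with both libraries but not with replicate 1 alone (adjusted p = 0.243 by edgeR). The next tested gene after the run was IGLC2, an immunoglobulin light chain gene with 0 reads in K562 and 1967, 2135 and 2053 CPM in GM12878, with BCR the second tested gene after that. Of 94 windows of 5 Mb with at least 15 tested genes, the one from 15 to 20 Mb of chromosome 22 had the largest share called higher, 13 of 20, and the one from 20 to 25 Mb had 14 of 28, against 13.9% over all genes. Between them in rank was the window from 45 to 50 Mb of chromosome X, with 21 of 40, which holds GAGE genes. On refitting with edgeR, the call of DGCR2 was lost without K562 replicate 2 (adjusted p = 0.0997). When edgeR was refitted on fewer libraries, the call of CRKL was lost without GM12878 replicate 2 (adjusted p = 0.0847).

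**Figure D5:**
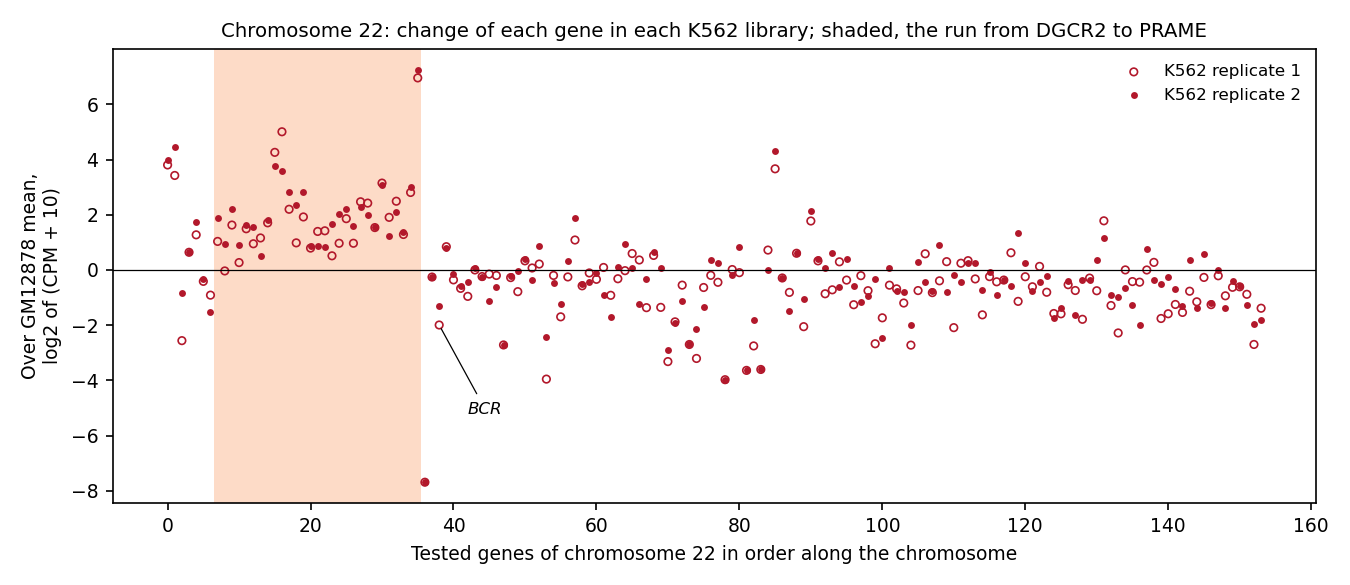
Change of each K562 library over the GM12878 mean, as log2 of CPM plus 10, for the 154 tested genes of chromosome 22 with a read in either line, in order along the chromosome (open, K562 replicate 1, filled, replicate 2). In the shaded run of 29 genes the median is 1.54 for replicate 1 and 1.88 for replicate 2, and points to its right lie mostly near or below 0, BCR included.

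Few genes were called for changed transcript usage. Usage is the share of a gene's known-transcript reads that a transcript takes, a measure that sums per gene do not use. Of 474 genes with enough known reads 4 were called, or 0.844%, by edgeR's diffSpliceDGE with Simes p-values adjusted over genes. The threshold was 0.05, with a minimum shift of 10 points of percent. Of 326 genes with at least 30 known reads in each line, 19 shifted by at least 20 points, and 3 of these were called. The low number of calls thus does not show that few genes differed. In NDUFS5, an accessory subunit of complex I, the transcript NDUFS5-202 took 62.2% of 225 known reads in K562 and 8.55% of 234 in GM12878. It had 50 of 91 reads in K562 replicate 1 and 90 of 134 in replicate 2, against 8 of 79, 8 of 103 and 4 of 52 in GM12878. Both K562 libraries were thus above all 3 GM12878 libraries. NDUFS5-201 and NDUFS5-202 (chromosome 1, plus strand, GRCh38) share their first exon start at 39026318 and differ in its end, at 39026398 in the first and 39026402 in the second, which adds 4 bases. The junctions of the first and second exon, from the GENCODE 29 transcripts, show the difference, with the added bases in capitals.
NDUFS5-201: cacgagcatcggccatgcctttct
NDUFS5-202: cacgagcatcggGTAGccatgcctttct
How well read alignment resolves a difference of 4 bases was not tested. In ALDOA, aldolase A, the transcript ALDOA-206 took 6.90% of 1073 known reads in K562 and 40.5% of 291 in GM12878, while ALDOA-209 took 88.5% in K562 and 54.6% in GM12878. ALDOA-206 had 15 reads in K562 replicate 1 and 59 in replicate 2, beside 172 and 778 of ALDOA-209, against 48, 58 and 12 beside 66, 65 and 28 in GM12878. In RPL14, a ribosomal protein gene, the transcript RPL14-201, annotated at 7072 bases, took 25.96% of 1591 known reads in K562 and 0.440% of 682 in GM12878. Both K562 libraries had it, with 122 and 291 reads, against 0, 3 and 0 reads in GM12878. Whether these reads span its last exon, annotated at 6649 bases, was not tested. The largest share was that of RPL14-208, which the annotation types as a retained intron, at 72.8% in K562 and 98.7% in GM12878. In PSMB10, the immunoproteasome gene that was lower in K562, the transcript PSMB10-203 took 78.6% of 28 known reads in K562 and 3.48% of 115 in GM12878. The annotation types PSMB10-203 as a retained intron, with 4 exons and 591 bases, and PSMB10-201 as protein-coding, with 8 exons and 1218 bases. Whether reads of PSMB10-203 were whole transcripts was not tested. With so few K562 reads that share is imprecise, though both K562 libraries had more of PSMB10-203 than of PSMB10-201, 14 and 8 reads against 1 and 5. All 4 genes were also called with each K562 library left out.

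Measures of whole libraries were compared over the 5 libraries. The share of reads on known models was 47.7% ± 0.0844 in K562 (SD, n = 2) and 45.3% ± 0.716 in GM12878 (n = 3), with both K562 libraries above all GM12878 libraries, at a two-sided exact permutation p of 0.1, the smallest that 2 libraries against 3 allow. Reads with an unannotated splice site were 6.47% in K562 and 8.58% in GM12878, and reads of mitochondrial genes 0.297% in K562 and 0.838% in GM12878, each at the same exact p of 0.1. Mitochondrial reads were 0.184% and 0.410% in the K562 libraries, against 1.04%, 0.755% and 0.718% in GM12878, so the lines did not overlap though the K562 libraries differed by over 2-fold. With 494 genes that had at least 20 reads in every library weighted equally, the share on known models was 53.1% in K562 and 52.5% in GM12878, at an exact p of 0.5.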

How the data were processed

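The deposited tables held raw counts of direct RNA reads per transcript model and library, which the authors made with TALON, per the labels. The submitters' processing notes name minimap2 as aligner and hg38 as build, and no version of minimap2 or TALON was found. Counts were summed per annotated gene, over known and unannotated models, which mixes full-length and truncated reads of a gene. Gene spans came from GENCODE 29 on GRCh38, and promoter sequence from RefSeq GRCh38.p14.

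All 8 libraries entered 1 edgeR 4.0.16 fit in R 4.3.3, with cell line as factor, TMM scaling and edgeR's filter on low counts, which left 4778 genes. Robust quasi-likelihood tests were two-sided with Benjamini-Hochberg adjustment, and a call needed an adjusted p under 0.05 and a change of at least 2-fold. CPM used the scaled library sizes, and ratios per library used log2 of CPM plus 10. Usage was tested with diffSpliceDGE in the same design, on transcripts with at least 10 reads. Counts were simulated for 3894 genes of this comparison and judged by an adjusted p under 0.05, without the cut at 2-fold. The test recovered 30% of 2-fold and 75% of 4-fold changes, and 2.78% of the genes that passed were false. All libraries were simulated with the same spread, so a wider spread between the K562 libraries was not covered. In usage simulated for 446 genes, with counting error only, 62 of the changed genes shifted by at least 30 points of percent, and 88.7% of these were recovered. Changed genes with smaller shifts were left out of that share.

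Of 39 gene lists with 976 entries, all were chosen with earlier results of these data known, as were the members. Named genes were, per direction, the called genes of largest change, those of largest change with at least 100 CPM in the lower line, the most abundant and most changed members of each list, called genes that differed most between K562 libraries, genes of changed usage and abundant genes not called. The called genes of largest change were picked only where neither K562 library fell within the GM12878 range. Their separation from GM12878 was thus fixed by the choice and does not test agreement between the K562 libraries. Further genes were named after their values were seen, among them those of the chromosome 22 run. Some genes are not reported here. Alternatives were another scaling, no filter, a 20 CPM filter, the 5 libraries alone, a test against a 2-fold change, known models only, a replicate block, each library left out and DESeq2 1.42.0.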

Additional observations from a re-analysis of the deposited data

How the results depend on the processing

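Against 1371 calls, 662 higher and 709 lower in K562, a test against a 2-fold change (glmTreat) gave 837, 375 higher and 462 lower, and known models only gave 459, 237 higher and 222 lower, with 146 calls among listed genes against 270, where 868 of the main calls were not tested. Calls higher in K562 numbered 1120 with no filter, 1086 with the 20 CPM filter, which let more genes in, 7511, and 437 with the K562 and GM12878 libraries alone, where 3032 genes were tested. Fitting with no filter moved the median log2 change of all genes to 0.17. With 1 library left out in turn, 1114 to 1855 genes were called, 462 to 995 of them higher and 554 to 860 lower. DESeq2 called 994, and 987 of these were among the 1371. No call was called in the opposite direction under any of these alternatives, and 5 called genes changed sign without K562 replicate 2 while no longer called.

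Correlations of deviations from the line mean were -0.05 and -0.01 between same-numbered libraries. With 2 K562 libraries their deviations mirror each other, so these values cannot decide whether replicate numbers pair the libraries. The replicate block gave 1291 calls, 628 higher and 663 lower, and 4 genes of changed usage. Usage calls numbered 3 to 6 under the alternatives run, each with the 4 main genes except the 30-read minimum, which kept 3.

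With 494 genes weighted equally, 3 library measures changed sign, as K562 minus GM12878. Reads of new combinations of known splice sites went to -0.22 percentage points, against 0.46, genomic reads to 0.55, against -0.82, and the mean length of known models to 1.94 bases, against -75.6. The cause was not tested. Depth limits genes with few reads, since 3 reads were 6.76 CPM in K562 and 7.63 CPM in GM12878.

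Among named genes, the fitted log2 change of these genes, none of them called in the full set, changed sign. CAPG had -1.55 to 1.06 over single libraries left out, against 0.40. HSPA5 had -0.18 to 0.92 over single libraries left out, against 0.44. NOP16 had -1.44 to 0.47 over single libraries left out, against -0.36. MTHFD2 had -1.08 to 2.02 over single libraries left out, against 1.28. PHGDH had -1.33 to 1.58 over single libraries left out, against 0.87. ODC1 had 0.054 with no filter, 0.0074 with the 20 CPM filter, 0.16 with known models only, -1.25 to 0.59 over single libraries left out, against -0.15. MYL12B had -0.20 with known models only, -0.17 to 0.39 over single libraries left out, against 0.05. CANX had -0.062 to 0.90 over single libraries left out, against 0.20. ATF4 had -0.37 to 0.98 over single libraries left out, against 0.47. MSN had 0.0018 with no filter, -0.29 to 0.11 over single libraries left out, against -0.18. HSP90B1 had -0.29 to 0.98 over single libraries left out, against 0.47. PDIA3 had -0.11 with known models only, -0.12 with the replicate block, -0.40 to 0.35 over single libraries left out, against 0.0054 in the full set. DDIT4 had -0.37 to 3.10 over single libraries left out, against 2.25. RELA had -0.032 with the replicate block, -0.25 to 0.58 over single libraries left out, against 0.07. JUP had -0.38 to 0.38 over single libraries left out, against 0.05. CALR had 0.093 with no filter, 0.073 with the 20 CPM filter, 0.12 with known models only, -0.91 to 0.46 over single libraries left out, against -0.09. ZFPM1 had -0.085 to 1.65 over single libraries left out, against 0.81.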

Other observations

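Some genes well covered in HepG2 had reads in K562 or GM12878 but not in both, and these sets were chosen after values were seen. Of genes with 0 reads in K562, 7 had at least 30 reads in GM12878 and 60 in HepG2. CRIP1 had 311 GM12878 and 286 HepG2 reads, and GPX1 had 205 GM12878 and 470 HepG2 reads. LITAF, which directs proteins to lysosomes, had 53 GM12878 and 256 HepG2 reads, and SNRPN, an imprinted splicing gene whose reads can be shared with SNURF, had 44 GM12878 and 300 HepG2 reads. The others were IL32, LIME1 and MT1E.

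Of genes with 0 reads in GM12878, 10 had at least 60 reads in K562 and 60 in HepG2. KRT18 had 256 K562 and 898 HepG2 reads, and KRT8 had 196 K562 and 1249 HepG2 reads. AKR1C1, an aldo-keto reductase, had 104 K562 and 6734 HepG2 reads, and APOC1, an apolipoprotein, had 134 K562 and 1083 HepG2 reads. SLC6A8, the creatine transporter, had 83 K562 and 185 HepG2 reads. The others were CDC42EP1, IFITM3, KRT19, LAPTM4B and SERPINB6.

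Of 28 tested chaperones 3 were called higher, 10.7%, against 13.9% over all genes, 1 was called lower, HSPH1, and 24 were not called. The 2 K562 libraries differed within the list, with a median log2 ratio of replicate 2 over replicate 1 of -0.49, while 9 of the 27 with a mean of at least 50 CPM in K562 were higher in replicate 2. HSPA5 and HSP90B1, chaperones of the endoplasmic reticulum, were among the 9, HSPA5 at 428 and 900.4 CPM in K562 and 480.0, 431 and 619 CPM in GM12878 and HSP90B1 at 369.8 and 876 CPM in K562 and 527, 436 and 408 CPM in GM12878, and neither was called. HSPA1A, the inducible HSP70, was at 221 and 128 CPM in K562 and 20.001, 5.82 and 0 CPM in GM12878, and HSPB1, a small heat shock protein, was at 707 and 552 CPM in K562 and 313, 244 and 197 CPM in GM12878. Both were called higher with each K562 library alone, and both K562 libraries were above all GM12878 libraries for each. The other call higher was FKBP4, an HSP90 cochaperone, lost without K562 replicate 1 (edgeR adjusted p = 0.0723) and without GM12878 replicate 2. The call of HSPH1 was lost without K562 replicate 2 (edgeR adjusted p = 0.624), without GM12878 replicate 1 and without GM12878 replicate 3.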
